A study of Mus musculus with 18 samples.

Results

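The 35 transcripts described here are mouse genes known for their use in neurons: cytoskeletal, synaptic, transmitter, RNA-binding and transcription factor genes. They were chosen by name, with earlier results of these data known. They are 35 of the 51912 genes counted in cultures prepared to hold cortical astrocytes. The cultures came from cortices of equal numbers of male and female pups on the day of birth, all hemizygous for the transgene Tg(Aldh1l1-EGFP/Rpl10a)JD130Htz on a B6;FVB background bred to C57BL/6J. In these mice the *Aldh1l1* promoter, active in astrocytes, drives RPL10A, a protein of the large ribosomal subunit, fused to EGFP, so that ribosomes of tagged cells can be pulled down with their mRNA by translating ribosome affinity purification (TRAP). Serum was withdrawn for 24 h, and dishes then received 50 mM ethanol for 24 h or no ethanol, which brought the cultures to 20 days in vitro. The pulled-down fraction (IP) was sequenced from 6 control and 6 ethanol dishes. Input was RNA of the lysate cleared of insoluble debris, taken before the pull-down. It was sequenced from 3 control and 3 ethanol dishes, replicates 4 to 6 of each treatment. Control and ethanol groups shared the genotype, and the number of pups behind each dish is not given in the sources used here. P-values therefore measure the spread between dishes, and a transcript can be low because few cells hold it or because each cell holds little, which cannot be told apart here.

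Neurons depend on a small set of restricted gene products: synaptic vesicle proteins, neurofilaments and microtubule regulators, transmitter-making enzymes and RNA-binding proteins of the Rbfox, Elavl and Celf families. Outside neurons many of these genes are held down by REST, a zinc finger repressor that binds the RE1 element together with the corepressor RCOR1 and histone deacetylases. Neurons tend to be lost from astrocyte cultures fed with serum and replated, while some genes of the list, such as *Thy1*, *Map2* and *Gap43*, are also known outside neurons.

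Libraries held 74239854 to 132810705 read pairs assigned to genes, with a median of 84119135. Levels are given in CPM, read pairs scaled to library size with TMM factors, or in CPM per kb of the longest annotated transcript. The members are ordered by level on the second scale. Classes of CPM, summed CPM and the choice of genes with the highest mean do not allow for length. *Aldh1l1*, whose promoter drives the tag, averaged 181 ± 9.87 CPM in input (SD, n = 6) and 375 ± 14.9 CPM in IP (SD, n = 12), a log2 difference of 1.05 (SE 0.0216, adjusted p = 5.45e-51). *Rpl10a*, whose own transcript and the tagged one are counted together, was lower in IP, at 245 ± 9.10 CPM against 354 ± 11.4 CPM in input. Each adjusted p is from edgeR's quasi-likelihood test with Benjamini-Hochberg adjustment over all 24495 genes tested.

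Levels of the members were graded from abundant to not detected. Of the 35, 10 averaged at least 10 CPM over the 18 libraries, 19 at least 1 CPM, 8 lay between 0.1 and 1 CPM and 8 lay below 0.1 CPM. At least 10 read pairs were counted in every library for 23 members, 7 members had 0 read pairs in at least 1 library, and 31 reached the 10 read pairs over 18 libraries needed for testing. A count of 0 allows up to 3 read pairs, which is 0.0228 CPM in the deepest library and 0.0409 CPM in the shallowest, for counting error only. All members together took 0.0581% to 0.0755% of the assigned read pairs.

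**Figure D1:**
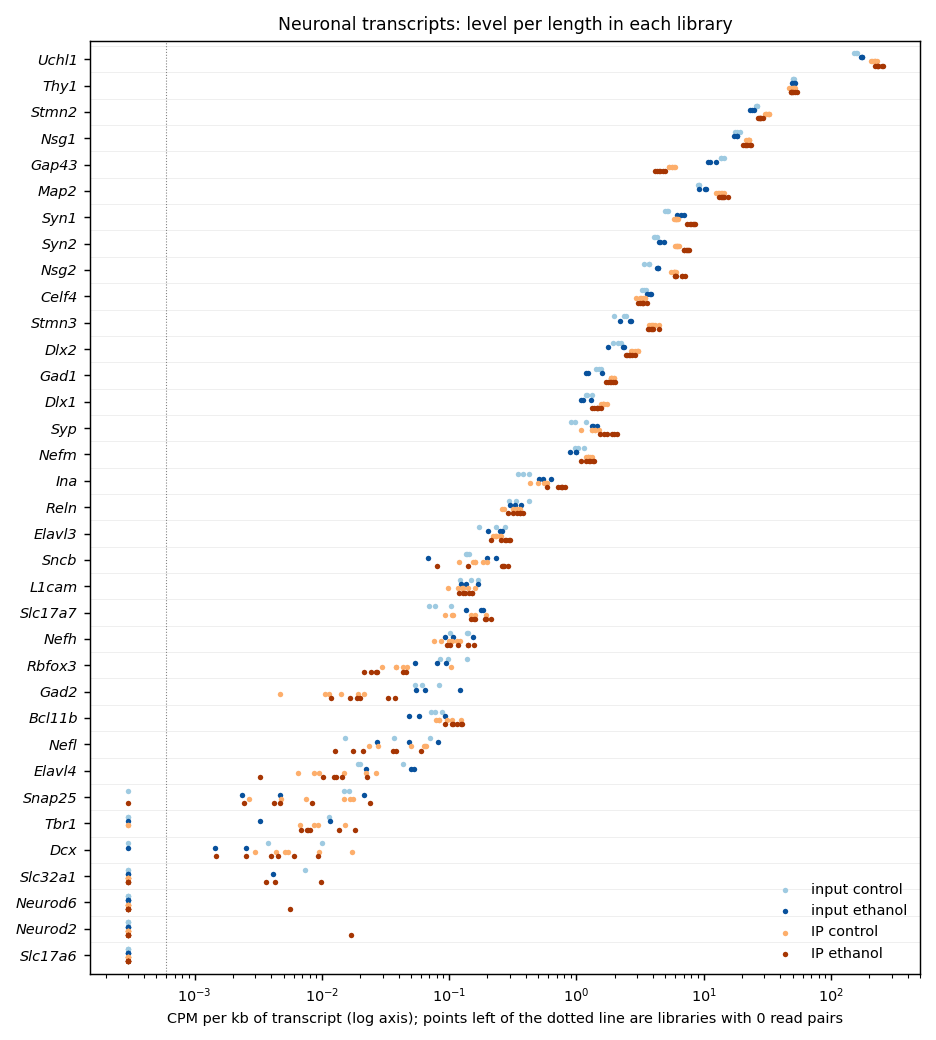
Level of each of the 35 neuronal transcripts in each of the 18 libraries, in CPM per kb of transcript on a log axis, ordered by the mean in input; each point is 1 library, coloured by fraction and treatment, and points left of the dotted line are libraries with 0 read pairs. Levels fall from 165.2 CPM per kb for *Uchl1* in input to 0 for *Slc17a6*.

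The highest levels per length were those of *Uchl1*, *Thy1*, *Stmn2* and *Nsg1*. *Uchl1*, a ubiquitin hydrolase abundant in neurons, had the highest level per length at 165.2 ± 9.55 CPM per kb in input (SD, n = 6), above 98.7% of 24424 genes ranked on that scale. *Thy1*, a GPI-anchored surface protein, followed with 50.9 ± 1.13 CPM per kb. *Stmn2*, a microtubule-destabilising protein of growth cones, had 25.0 ± 1.38 CPM per kb. *Nsg1*, an endosomal protein of dendrites, had 18.2 ± 0.722 CPM per kb. These top levels did not overlap with each other in the input libraries, so this order was larger than the spread between dishes.

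Below them came *Gap43*, a growth cone phosphoprotein, with 12.7 ± 1.48 CPM per kb in input, and *Map2*, a dendritic microtubule-associated protein, with 9.60 ± 0.612 CPM per kb. The synapsins, which tether synaptic vesicles, had 5.85 ± 0.843 CPM per kb for *Syn1* and 4.41 ± 0.293 CPM per kb for *Syn2*. *Nsg2*, a relative of *Nsg1*, had 3.98 ± 0.415 CPM per kb, *Celf4*, an RNA-binding protein, 3.56 ± 0.211 CPM per kb and *Stmn3*, a relative of *Stmn2*, 2.38 ± 0.264 CPM per kb. From *Syn2* to *Celf4* neighbouring means lay closer to each other than their SDs summed. The homeobox genes *Dlx2* and *Dlx1*, which direct GABAergic interneuron fate, had 2.13 ± 0.236 and 1.204 ± 0.0966 CPM per kb, and *Gad1*, which makes GABA, had 1.41 ± 0.172 CPM per kb. *Syp*, the vesicle protein synaptophysin, had 1.1998 ± 0.220 CPM per kb, which rests on counts 1.89 times lower than those on its own strand, and *Nefm*, the middle neurofilament subunit, 1.002 ± 0.0820 CPM per kb.

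A lower tier followed. It held the intermediate filament gene *Ina* with 0.473 ± 0.110, the secreted glycoprotein gene *Reln* with 0.341 ± 0.0464, and the RNA-binding protein gene *Elavl3* with 0.231 ± 0.0387 CPM per kb. The synuclein gene *Sncb* had 0.152 ± 0.0565 CPM per kb, the adhesion molecule gene *L1cam* 0.144 ± 0.0211, the vesicular glutamate transporter gene *Slc17a7* 0.125 ± 0.0495 and the heavy neurofilament gene *Nefh* 0.122 ± 0.0245. From *Sncb* to *Nefh* the neighbours in this order did not differ beyond their spread.

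The lowest levels per length were those of the following members. *Rbfox3*, which encodes the NeuN antigen, had 281 read pairs over the 18 libraries, 5 to 38 per library. *Gad2*, the second GABA-making enzyme gene, had 330 read pairs, 2 to 60 per library. *Nefl*, the light neurofilament gene, had 219 read pairs and *Elavl4*, an RNA-binding protein gene, 1 to 18 per library. *Bcl11b*, a transcription factor of deep-layer projection neurons, was higher in CPM, at 0.591 ± 0.139 in input, but its transcript is long and its level per length of 0.0729 ± 0.0171 CPM per kb was close to that of *Gad2*, 0.0730 ± 0.0258 CPM per kb. *Snap25*, a membrane fusion protein of the presynapse, and *Dcx*, the microtubule protein of migrating neurons, had 70 read pairs each over all libraries. *Tbr1*, a factor of glutamatergic projection neurons, had 44. *Slc32a1*, the vesicular GABA transporter gene, had 7 read pairs in 5 libraries, and *Slc17a6*, a vesicular glutamate transporter gene, had 0 in all 18. *Neurod2* and *Neurod6*, factors of cortical excitatory neurons, had 5 and 1 read pairs, the 5 of *Neurod2* all in 1 library, IP ethanol 1. *Neurod2*, *Neurod6*, *Slc17a6* and *Slc32a1* were the 4 members not tested.

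**Figure D2:**
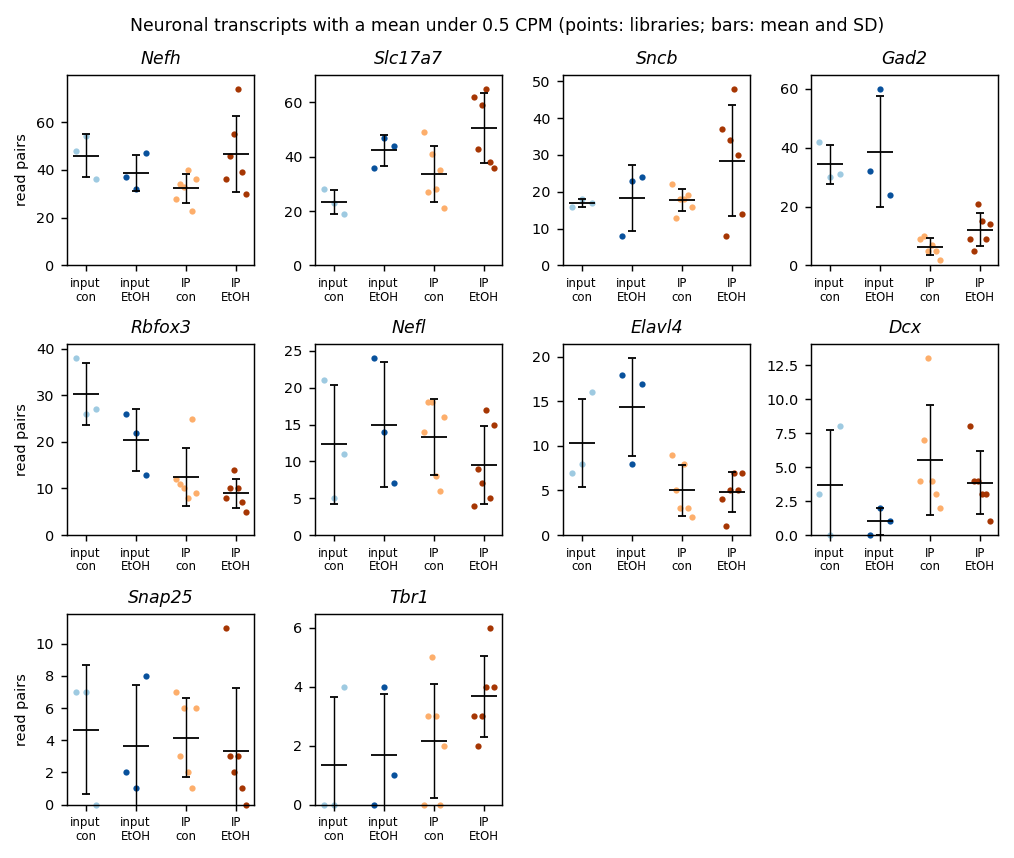
Read pairs per library of the 10 neuronal transcripts with a mean under 0.5 CPM and at least 10 read pairs in all; points are libraries, bars are the group mean and SD. *Dcx*, *Snap25* and *Tbr1* stay at 13 read pairs or fewer in every library, while the means of *Gad2* and *Elavl4* are higher in input than in IP.

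The RE1 element was looked for in the promoters of the members, taken from RefSeq (GRCm38.p6) as 250 bases before to 50 bases after each start. Entries were matched for 26 of the 35 members, with 34 promoters, and 9 members had none. The search was for the element's half-sites AGCACC and GGACAG, 2 bases apart, on both strands and with at most 1 mismatch. A match was found in 3 of the 34 member promoters and in 116 of all 32851 promoters (0.353%). An exact match was found in 1 member promoter and in 17 of all promoters (0.0517%). The matches lay in *Gad2* (exact), *Syn1* (1 mismatch, 229 bases before the start) and *Slc17a6* (1 mismatch, other strand, 34 bases past the start). A match is a description of letters and no match says only that these letters are not in the window. The 3 are shown because they are the member promoters with a match. The first 250 bases of the windows of *Gad2* (chr2:22622077-22622326, plus strand) and *Syn1* (chrX:20920919-20921168, minus strand) and the 14 bases of the element in *Slc17a6* (chr7:51621864-51621877, read on the plus strand) follow 5′ to 3′, with the matched half-sites in capitals.
Gad2: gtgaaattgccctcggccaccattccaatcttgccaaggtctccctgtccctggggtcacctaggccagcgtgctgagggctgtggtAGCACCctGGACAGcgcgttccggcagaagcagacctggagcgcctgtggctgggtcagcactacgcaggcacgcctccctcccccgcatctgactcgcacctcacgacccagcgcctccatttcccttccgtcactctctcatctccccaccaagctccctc
Syn1: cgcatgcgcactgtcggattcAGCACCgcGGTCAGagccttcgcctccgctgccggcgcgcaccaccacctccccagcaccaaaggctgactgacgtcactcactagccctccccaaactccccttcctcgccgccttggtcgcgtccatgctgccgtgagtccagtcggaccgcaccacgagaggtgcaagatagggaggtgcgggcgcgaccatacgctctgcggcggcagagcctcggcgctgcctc
Slc17a6: CTGTCCgtGGTCCT

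Of the repressor side, *Rest* itself was well expressed, at 56.5 ± 2.54 CPM in input (SD, n = 6) and 57.1 ± 2.38 CPM in IP (SD, n = 12). It was chosen here after its values were seen. Of the 12 genes listed as repressors of neuronal genes, 4 were higher and 6 lower in IP than in input. The 3 with the highest mean were *Ehmt2*, a histone methyltransferase, which was higher by 0.08 (SE 0.0192) on the log2 scale, *Ctdsp1*, a small phosphatase of the REST complex, which fell by 0.36 (SE 0.0208), and *Ptbp1*, a splicing repressor of neuronal exons, which was higher by 0.22 (SE 0.0190). Whether these levels bear on those of the members was not tested.

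IP vs. input asked which of these transcripts took a larger or smaller share of the pulled-down RNA than of the lysate RNA. The kind of cell that held a transcript and its loading on ribosomes cannot be told apart by this ratio. Most abundant members were higher in IP, among them both synapsins, *Map2*, *Uchl1*, *Stmn3* and *Nsg2*, while *Gad2*, *Gap43*, *Elavl4* and *Rbfox3* were lower in IP by 2.27-fold to 4.00-fold. Of the 31 members tested, 15 were higher and 5 lower in IP and 11 did not pass the test. Over all genes tested 51% were called, 25.2% higher and 25.8% lower. The median log2 fold change was 0.32 over the 31 members and -0.03 over all genes. IP and input libraries did not overlap for 9 members that were higher and 2 that were lower, against 13.1% and 11.9% of all genes. IP and input libraries of replicates 4 to 6 came from the same dishes, and blocking on the dish among those 12 libraries gave the same counts of called members as the fit of those libraries without the block, 15 higher and 6 lower.

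**Figure D3:**
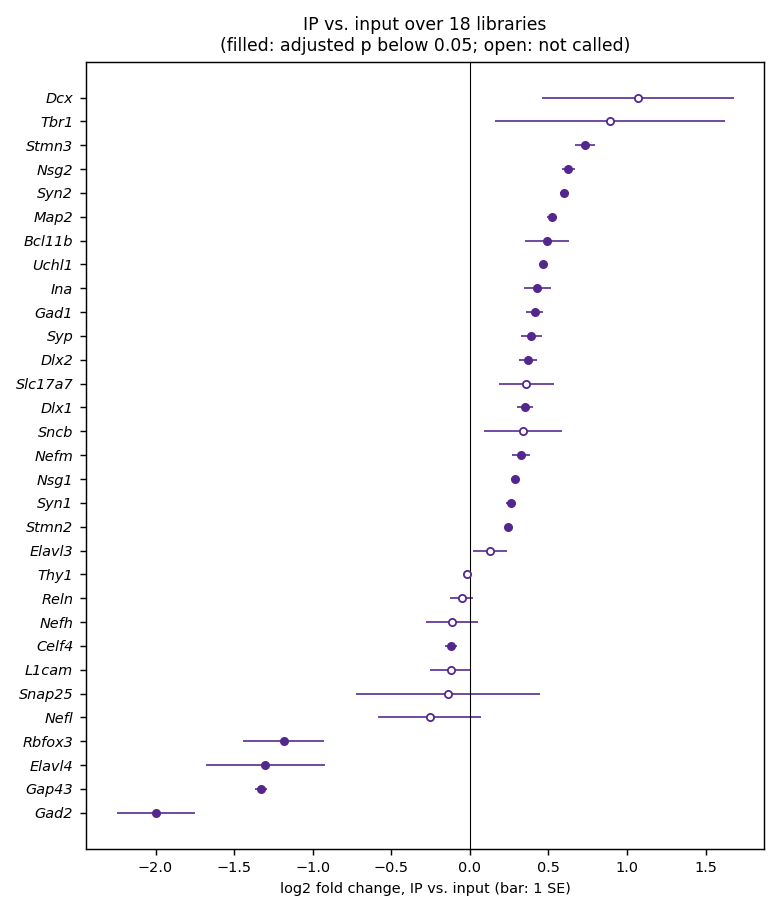
Log2 fold change of IP vs. input for the 31 members tested, from the fit of 18 libraries with treatment as a covariate; points are estimates, bars 1 SE, and filled points have an adjusted p below 0.05. Values run from -1.999 for *Gad2* to 1.07 for *Dcx*, which was not called, and 15 filled points lie above 0 and 5 below.

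The vesicle and membrane fusion genes were higher in IP in 3 of 5 cases. *Syn2* had 15.8, 16.9 and 18.9 CPM as lowest, median and highest of the input libraries and 23.0, 25.7 and 29.4 CPM in IP. The groups did not overlap, and the log2 change was 0.60 (SE 0.0311, adjusted p = 5.45e-28). *Syn1* was higher by 0.26 (SE 0.0320, adjusted p = 3.69e-11) and *Syp* by 0.39 (SE 0.0663, adjusted p = 4.86e-07), both with overlapping libraries. *Snap25* and *Sncb* did not pass the test.

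Among the microtubule and growth cone genes, 3 were higher, 1 lower and 1, *Dcx*, not called, which was called higher without input control 6 (1.81, adjusted p = 0.0309). *Stmn3* ran from 2.26 over 2.72 to 3.07 CPM in input and from 4.18 over 4.45 to 5.08 CPM in IP. All IP libraries lay above all input libraries, with a log2 change of 0.73 (SE 0.0651, adjusted p = 2.62e-16). *Map2* was higher by 0.52 (SE 0.0327, adjusted p = 1.05e-13) and *Stmn2* by 0.24 (SE 0.0219, adjusted p = 3.41e-16). *Gap43* went the other way, from 15.3, 18.6 and 20.5 CPM in input to 5.87, 7.26 and 8.51 CPM in IP. Its groups were far apart, and the log2 change was -1.33 (SE 0.0392, adjusted p = 2.33e-42), 2.51-fold lower in IP.

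Both endosomal genes were higher in IP. *Nsg2* ran from 7.62 over 9.04 to 9.77 CPM in input and from 12.3 over 13.4 to 16.1 CPM in IP, without overlap, at a log2 change of 0.63 (SE 0.0414, adjusted p = 2.83e-22). *Nsg1* was higher by 0.29 (SE 0.0252, adjusted p = 1.91e-16). Of the 4 intermediate filament genes *Ina* was higher by 0.43 (SE 0.0882, adjusted p = 2.11e-05) and *Nefm* by 0.32 (SE 0.0593, adjusted p = 2.39e-06), and *Nefl* and *Nefh* were not called.

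*Uchl1* was higher by 0.47 (SE 0.0226, adjusted p = 2.72e-25), with 179, 195 and 205 CPM in input and 244, 266 and 300 CPM in IP and no overlap. *Reln* and *L1cam* were not called. *Thy1* was not called over the 18 libraries, at 88.4 ± 1.97 CPM in input and 87.3 ± 3.33 CPM in IP. In the 12 libraries of replicates 4 to 6 it was called lower in IP by 0.06, with the dish as a block (SE 0.0231, adjusted p = 0.0351) and without it (SE 0.0233, adjusted p = 0.0388).

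The transmitter genes parted. *Gad1* ran from 4.26 over 5.24 to 5.73 CPM in input and from 6.15 over 6.79 to 7.21 CPM in IP, higher by 0.41 (SE 0.0531, adjusted p = 2.81e-10) and without overlap. *Gad2*, which makes the same product from another gene, had 0.310, 0.360 and 0.695 CPM in input and 0.0270, 0.102 and 0.215 CPM in IP. Every IP library lay below every input library, with 2 to 21 read pairs per IP library against 24 to 60 per input library, and the log2 change was -1.999 (SE 0.248, adjusted p = 8.34e-11). *Slc17a7* was not called over the 18 libraries, but was called higher in IP in the control libraries alone (0.68, adjusted p = 0.0435) and without input ethanol 6 (0.45, adjusted p = 0.0454).

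The transcription factors *Dlx1*, *Dlx2* and *Bcl11b* were higher in IP. Their log2 fold changes were 0.35 (SE 0.0518, adjusted p = 1.39e-08) for *Dlx1*, 0.37 (SE 0.0544, adjusted p = 1.36e-08) for *Dlx2* and 0.49 (SE 0.141, adjusted p = 0.00230) for *Bcl11b*. In the control libraries alone *Bcl11b* lost its call, at a log2 change of 0.24 and an adjusted p of 0.351 (0.00106 to 0.351 over its alternatives).

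The RNA-binding protein genes were lower in IP in 3 of 4 cases. *Rbfox3* had 0.169, 0.284 and 0.434 CPM in input and 0.0674, 0.121 and 0.328 CPM in IP. The groups overlapped through 1 IP library, control 5, and the log2 change was -1.18 (SE 0.258, adjusted p = 5.82e-05). *Elavl4* had 0.0799, 0.137 and 0.221 CPM in input and 0.0136, 0.0522 and 0.110 CPM in IP, with overlap, at -1.30 (SE 0.379, adjusted p = 0.00246). *Celf4* differed by -0.12 (SE 0.0382, adjusted p = 0.00495), and in the control libraries alone neither *Celf4* nor *Elavl4* was called (adjusted p = 0.263 and 0.222). *Elavl3* was not called over the 18 libraries.

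Markers of other cell types moved between the fractions as well. Of the astrocyte markers 10 of 12 were higher and 1 lower in IP, and their summed level ran from 1724 to 1800 CPM in input and from 2631 to 2808 CPM in IP. Of the microglia markers 9 of 10 were lower, with sums of 86.2 to 104 CPM in input and 15.0 to 19.2 CPM in IP. Fibroblast and meningeal markers were lower in 4 and higher in 2 of 6 tested, with sums of 243 to 253 CPM in input and 133.1 to 153.96 CPM in IP, and *Slc22a6* was at 0 read pairs. Oligodendrocyte lineage markers were higher in 5 and lower in 4 of 11, with sums of 259 to 283 CPM in input and 378 to 424 CPM in IP. Mural markers were higher in 3 and lower in 2 of 7, ependymal markers higher in 2 of 6, and endothelial markers higher in 1 and lower in 3 of 6 tested, with *Cldn5* at 0 read pairs. The part of these cells in the members' differences was not tested.

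Of a second list of 40 neuronal genes, 26 were higher and 4 lower in IP, with a median log2 fold change of 0.42. Its 3 genes with the highest mean were *Rtn1*, a reticulon of the endoplasmic reticulum, with 344 CPM in input and 523 CPM in IP and a log2 change of 0.61 (SE 0.0182), *Vamp2*, a vesicle fusion protein, with 0.17 (SE 0.0189), and *Kif5c*, a kinesin, with 0.61 (SE 0.0209). Of 14 interneuron and projection neuron genes tested, 2 were higher and 6 lower. In that list *Cux2*, a factor of upper-layer neurons, rose by 0.18 (SE 0.0566). Of 9 neuronal precursor genes tested, 3 were higher and 1 lower. *Tubb2b*, a tubulin, and *Sox4*, a transcription factor, were higher by 0.19 (SE 0.0193) and 0.28 (SE 0.0393), and *Cd24a*, a surface protein, fell by 0.76 (SE 0.0403) from 158 to 93.0 CPM.

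Ethanol vs. control in IP asked which members changed in the pulled-down RNA after 24 h of 50 mM ethanol. Ethanol upregulated the vesicle protein genes *Syn1*, *Syn2* and *Syp*, the filament gene *Ina*, *Uchl1* and *Nsg2*, by 1.10-fold to 1.37-fold, and downregulated *Gap43*, *Stmn2* and *Dlx1*, by 1.12-fold to 1.24-fold. Of 31 members tested, 6 were higher, 3 lower and 22 not called, where 21.4% of all genes were called, 11.9% higher and 9.48% lower. The median log2 fold change was 0.08 over the members and 0.01 over all genes. Libraries of the treatments did not overlap for 3 members that were higher and 2 that were lower, against 5.09% and 4.87% of all genes.

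**Figure D4:**
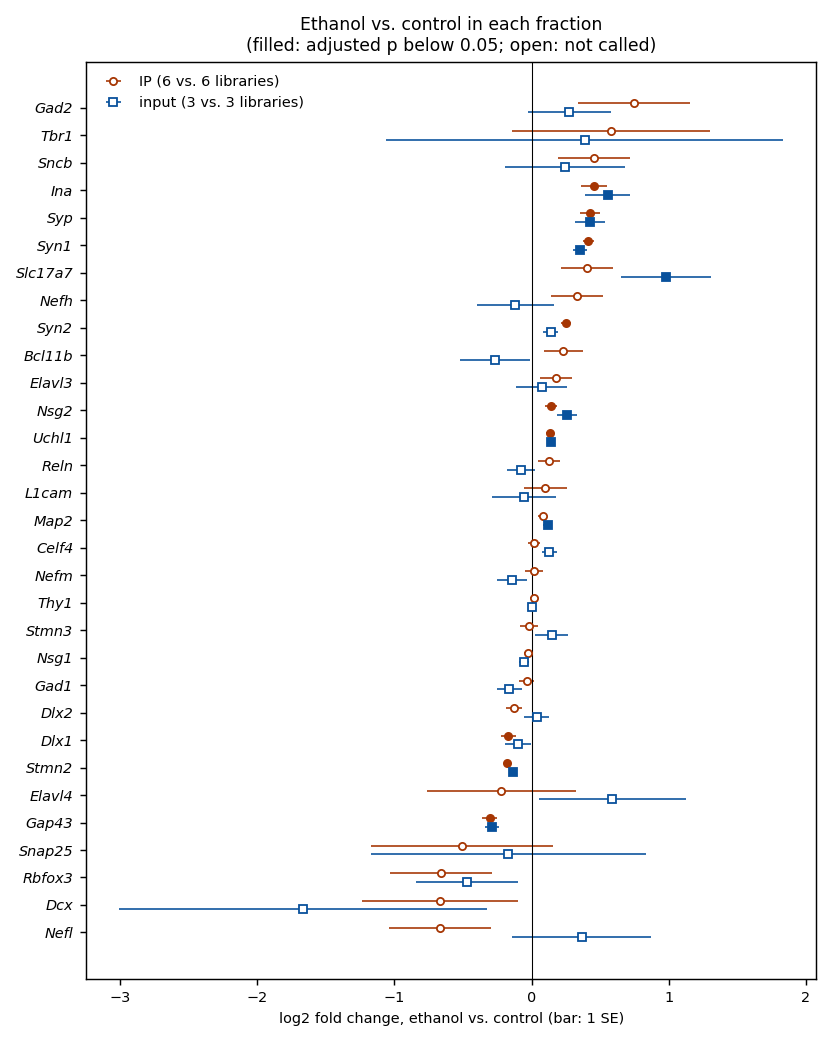
Log2 fold change of ethanol vs. control for the 31 members tested, in IP (circles, 6 vs. 6 libraries) and in input (squares, 3 vs. 3 libraries); bars are 1 SE and filled symbols have an adjusted p below 0.05. *Ina*, *Syp*, *Syn1*, *Nsg2* and *Uchl1* are filled above 0 and *Stmn2* and *Gap43* below 0 in both fractions.

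Of the 5 members in the vesicle and membrane fusion group, 3 were higher under ethanol in IP and 0 lower. A group of 5 is too small to set against the shares over all genes. *Syn1* had 19.0, 19.7 and 20.6 CPM as lowest, median and highest of the 6 control IP libraries and 24.1, 26.4 and 27.6 CPM in the 6 ethanol IP libraries. The groups did not overlap, and the log2 change was 0.42 (SE 0.0366, adjusted p = 7.38e-14). *Syp* had 3.10, 3.86 and 4.31 CPM in control and 4.38, 5.19 and 5.87 CPM in ethanol, again without overlap, at 0.43 (SE 0.0726, adjusted p = 5.92e-06). *Syn2* had 23.0, 23.6 and 24.5 CPM in control and 26.9, 28.1 and 29.4 CPM in ethanol, without overlap, at 0.25 (SE 0.0341, adjusted p = 4.17e-08). *Snap25* and *Sncb* of the same group were not called. *Vamp2*, a vesicle fusion gene of the second list, fell under ethanol in IP, as given below, so the rise was not shared by all vesicle genes.

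*Ina* rose from 1.39, 1.83 and 1.91 CPM in control to 1.90, 2.46 and 2.62 CPM in ethanol, with 1 ethanol library inside the control range, at 0.46 (SE 0.0953, adjusted p = 0.000178). In IP replicates 4 to 6 alone *Ina* was not called (0.35, adjusted p = 0.0554, 1.35e-05 to 0.499 over its alternatives). The neurofilament genes *Nefl*, *Nefm* and *Nefh* were not called. *Uchl1* rose from 244, 259 and 269 CPM to 262, 275 and 300 CPM, with overlap, at 0.13 (SE 0.0280, adjusted p = 0.000349). *Nsg2* rose from 12.3, 13.1 and 13.6 CPM to 13.2, 14.3 and 16.1 CPM, with overlap, at 0.14 (SE 0.0452, adjusted p = 0.0159). Its call was lost without IP control 1 (adjusted p = 0.0642), IP ethanol 2 (0.105), IP ethanol 4 (0.0541) or IP ethanol 6 (0.0568), with 0.00525 to 1 over all its alternatives.

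The members that fell were growth cone genes and 1 homeobox gene. *Gap43* had 7.52, 7.94 and 8.51 CPM in control IP and 5.87, 6.37 and 6.99 CPM in ethanol IP, without overlap, at a log2 change of -0.31 (SE 0.0547, adjusted p = 1.44e-05). *Stmn2* had 103, 108 and 112 CPM in control and 90.7, 94.4 and 99.1 CPM in ethanol, without overlap, at -0.18 (SE 0.0262, adjusted p = 2.70e-07). *Stmn3*, *Map2* and *Dcx* were not called. *Dlx1* had 6.36, 6.67 and 7.09 CPM in control and 5.40, 6.00 and 6.45 CPM in ethanol, with overlap, at -0.17 (SE 0.0563, adjusted p = 0.0227). The call of *Dlx1* was lost without IP control 2 (adjusted p = 0.0544), IP ethanol 1 (0.0550) or IP ethanol 6 (0.0591), with 0.00126 to 1 over all its alternatives.

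The 22 members not called in IP by edgeR were *Thy1*, *Nsg1*, *Map2*, *Celf4*, *Stmn3*, *Nefm*, *Gad1*, *Dlx2*, *Reln*, *Elavl3*, *Bcl11b*, *L1cam*, *Nefh*, *Slc17a7*, *Sncb*, *Gad2*, *Rbfox3*, *Nefl*, *Elavl4*, *Dcx*, *Snap25* and *Tbr1*. For 14 of them the SE was under 0.2, and their log2 fold changes lay between -0.13 and 0.40. The 0.40 was that of *Slc17a7* (SE 0.190, adjusted p = 0.135), so an SE under 0.2 did not make changes of that size detectable in every member. For the other 8 (*Snap25*, *Rbfox3*, *Dcx*, *Gad2*, *Sncb*, *Elavl4*, *Nefl* and *Tbr1*), each with a mean under 0.5 CPM, the SE was 0.2 or more, and changes of the size seen in most called members were not detectable at this depth. DESeq2 called *Dlx2* lower in IP, by 0.14 on the log2 scale (adjusted p = 0.0438), and edgeR did so without IP control 2 (adjusted p = 0.0495) or IP ethanol 5 (0.0439), against 0.0998 with all libraries. *Map2* was called higher in IP without IP control 6 (adjusted p = 0.0296) or IP ethanol 3 (0.0318).

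Ethanol vs. control in input asked the same of the cleared lysate. Ethanol upregulated *Slc17a7*, *Ina*, *Syp*, *Syn1*, *Nsg2*, *Uchl1* and *Map2* and downregulated *Gap43* and *Stmn2*. Of 31 members tested, 7 were higher, 2 lower and 22 not called, where 15% of all genes were called, 7.21% higher and 7.78% lower. The median log2 fold change was 0.07 over the members and -0.00 over all genes. Libraries did not overlap for 8 members that were higher and 2 that were lower, against 14% and 13.1% of all genes.

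*Syn1* had 17.2, 16.8 and 16.2 CPM in the control input libraries, replicates 4 to 6, and 22.7, 21.7 and 20.0 CPM in the ethanol libraries. All ethanol libraries lay above all control libraries, at a log2 change of 0.36 (SE 0.0503, adjusted p = 1.42e-10). *Syp* had 2.56, 3.36 and 2.79 CPM in control and 3.79, 3.86 and 4.11 CPM in ethanol, without overlap, at 0.43 (SE 0.112, adjusted p = 0.00200). *Syn2* was not called, though its values of 16.0, 15.8 and 16.7 CPM in control all lay below the 17.2, 18.9 and 17.4 CPM in ethanol. It was called without input ethanol 4 (0.17, adjusted p = 0.0328), on the annotated strand (0.14, adjusted p = 0.0424) and with total counts in place of TMM (0.15, adjusted p = 0.0371), and *Gad1* was called lower without input ethanol 4 (-0.31, adjusted p = 0.0267). Counted on the annotated strand alone, the change of *Syp* was 0.25 on the log2 scale (adjusted p = 0.0184).

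*Uchl1* had 179, 186 and 188 CPM in control and 205, 203 and 205 CPM in ethanol, without overlap, at 0.14 (SE 0.0232, adjusted p = 4.22e-08). *Nsg2* had 7.62, 8.39 and 8.29 CPM in control and 9.72, 9.77 and 9.69 CPM in ethanol, without overlap, at 0.26 (SE 0.0714, adjusted p = 0.00345). *Ina* had 1.12, 1.37 and 1.23 CPM in control and 2.06, 1.64 and 1.78 CPM in ethanol, without overlap, at 0.55 (SE 0.164, adjusted p = 0.00768). The call of *Ina* was lost without input control 4 (adjusted p = 0.0567) or input ethanol 4 (0.0797), with 0.00650 to 0.917 over all its alternatives.

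*Map2* had 57.9, 56.9 and 57.9 CPM in control and 57.9, 64.2 and 65.8 CPM in ethanol, at 0.12 (SE 0.0308, adjusted p = 0.00199). The change rested on 2 of the 3 ethanol libraries, and without input ethanol 6 it was 0.08 (adjusted p = 0.141, 8.93e-06 to 1 over all its alternatives). *Slc17a7*, the VGLUT1 gene, had 0.319, 0.238 and 0.215 CPM in control and 0.414, 0.544 and 0.573 CPM in ethanol, without overlap, at 0.98 (SE 0.327, adjusted p = 0.0229). This is a change from 19 to 28 read pairs per library to 36 to 47. Its call was lost without input control 5 (adjusted p = 0.0815), input control 6 (0.108), input ethanol 5 (0.0900) or input ethanol 6 (0.104), with 0.0186 to 0.712 over its alternatives, and DESeq2 gave it no adjusted p.

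Both members that fell in input had also fallen in IP. *Gap43* had 19.5, 20.5 and 19.5 CPM in control and 15.9, 15.3 and 17.8 CPM in ethanol, without overlap, at -0.29 (SE 0.0516, adjusted p = 1.24e-06). *Stmn2* had 90.1, 87.4 and 90.0 CPM in control and 78.2, 84.0 and 82.1 CPM in ethanol, without overlap, at -0.13 (SE 0.0273, adjusted p = 2.25e-05). Of the 22 members not called in input, 11 had an SE under 0.2 and log2 fold changes between -0.16 and 0.15. The other 11, which had an SE of 0.2 or more, could not show such changes at this depth. Nor could all of the first 11, among which *Elavl3* had an SE of 0.185.

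**Figure D5:**
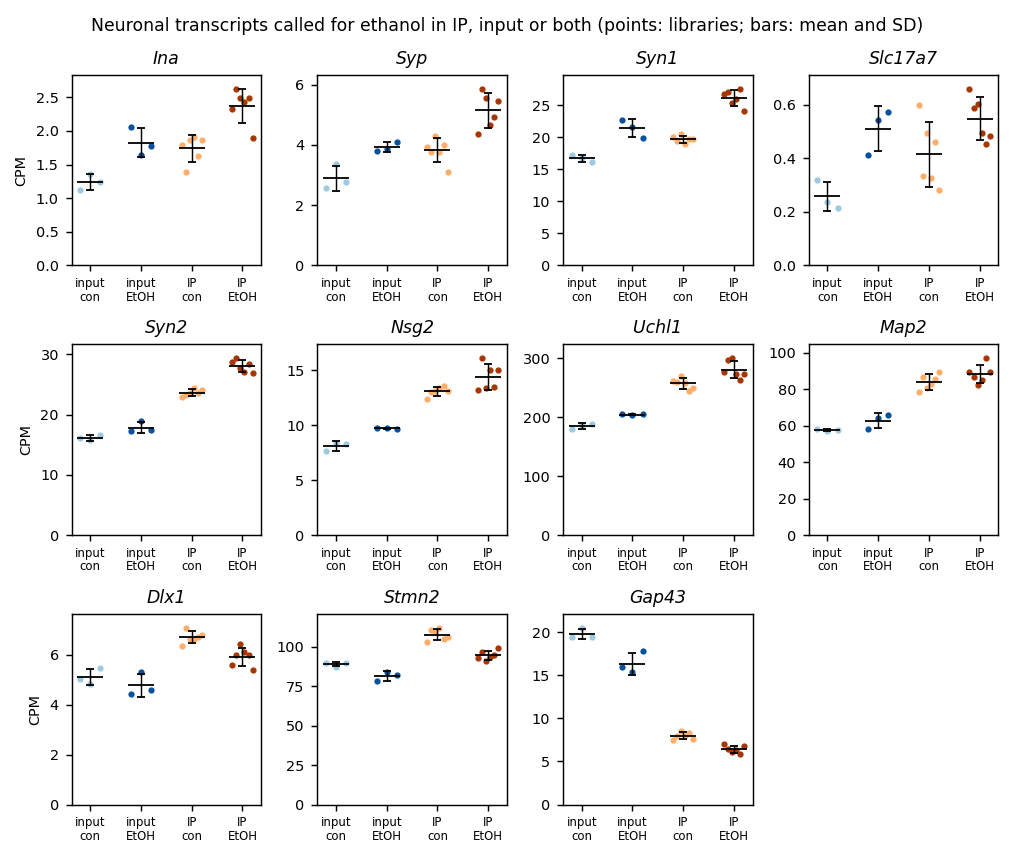
CPM in each library for the 11 neuronal transcripts called for ethanol in IP, in input or in both; points are libraries, bars the group mean and SD, and each axis starts at 0. *Syn1* and *Syp* sit higher and *Gap43* and *Stmn2* lower in the ethanol libraries of both fractions, without overlap between treatments.

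Side by side, 7 members were called in both fractions, 5 higher (*Uchl1*, *Nsg2*, *Syn1*, *Syp*, *Ina*) and 2 lower (*Gap43*, *Stmn2*). *Syn2* and *Dlx1* were called in IP alone, and *Map2* and *Slc17a7* in input alone. The input libraries are aliquots of dishes that also gave IP libraries, so the fractions are not independent. Tested as an interaction over the 18 libraries, the ethanol effect differed between IP and input for 0 of 31 members by edgeR's quasi-likelihood test, with 0 members at an unadjusted p under 0.05 and 0 by DESeq2. Over all 24495 genes this test called 0% (0 genes), with 1459 genes (5.96%) at an unadjusted p under 0.05 and 2 genes (0.00816%) by DESeq2. When the fit was blocked on the dish among 12 libraries (replicates 4 to 6), 94 genes were called higher and 8 lower, and again 0 members. For *Syn2* the difference of the log2 effects, IP minus input, was 0.10 (95% interval -0.02 to 0.22), and for *Slc17a7* -0.59 (-1.28 to 0.10), so differences of that size remain possible.

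Under ethanol, of the second list of 40 neuronal genes, 12 were higher and 2 lower in IP, and 4 were higher and 3 lower in input, where 21.4% and 15% of all genes were called. These are 35% of the list in IP and 17.5% in input, the latter close to the share over all genes. *Rtn1* was higher by 0.18 (SE 0.0218) in IP and by 0.11 (SE 0.0228) in input, *Kif5c* by 0.14 (SE 0.0250) and 0.08 (SE 0.0271), and *Vamp2* fell by 0.07 in both (SE 0.0236 and 0.0237). Of 14 interneuron and projection neuron genes tested, 1 was higher and 0 lower in IP (7.14% of those tested), and 0 were called in input. Of 9 precursor genes 1 was higher and 2 lower in IP, with *Sox4* higher by 0.15 (SE 0.0279) and *Tubb2b* lower by 0.10 (SE 0.0233), and 1 was lower in input. Of the 12 repressor genes 4 were higher and 2 lower in IP and 1 was higher and 2 lower in input. With 14, 9 and 12 genes tested, the counts of these 3 lists are too small to set against the shares over all genes. *Rest* was higher by 0.08 (SE 0.0288, adjusted p = 0.0391) in IP and by 0.11 (SE 0.0316, adjusted p = 0.00752) in input.

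For the marker lists of other cells the ethanol calls were as follows, to be read against 21.4% of all genes called in IP and 15% in input. Mural markers summed to 1384 to 1458 CPM in control and 988 to 1056 CPM in ethanol input, and to 1738 to 1875 and 1167 to 1368 CPM in IP, led by the smooth muscle actin gene *Acta2*, with 2 lower and 1 higher of 7 in IP and 1 lower in input. Astrocyte markers were higher in 4 and lower in 1 of 12 in IP and higher in 4 and lower in 4 in input, and *Aldh1l1* fell by 0.13 (SE 0.0233, adjusted p = 9.38e-07) in input. Microglia markers were higher in 1 of 10 in each fraction and oligodendrocyte lineage markers higher in 2 of 11 in IP and in 3 in input, with 1 lower in each. In each fraction 1 of 6 endothelial markers was lower and 1 of 6 fibroblast and meningeal markers higher, and of 6 ependymal markers 1 was higher and 1 lower in IP and 1 lower in input. Their part in the ethanol effects on the members was not tested.

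Counting without regard to strand touched a few members. Counts on the annotated strand were within 10% of the unstranded counts for 26 of 31 members tested. *Syp*, which overlaps the antisense gene *Gm14703*, had 12181 read pairs on its own strand against 6438 unstranded, where pairs shared with an overlapping gene are left out. *Nefl*, which overlaps *Nefm* on the other strand, had 381 against 219. *Uchl1* had 435172 against 380727, *Dlx1* 11176 against 9124 and *Nsg1* 92340 against 83924, with *Uchl1os*, *Dlx1as* and *Stx18* on the other strand. On the annotated strand *Syp* was higher in IP vs. input by 0.41 and under ethanol in IP by 0.43, and *Dlx1* was lower under ethanol in IP by 0.21 (adjusted p = 0.00126).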

How the data were processed

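RNA-seq libraries came from 6 control IP, 6 ethanol IP, 3 control input and 3 ethanol input samples, made with a stranded total RNA kit and sequenced as read pairs. Per the submitters' processing notes and the study's methods, reads were trimmed with Trimmomatic and aligned with STAR, with SAMtools also named and no version given in the sources used here. The deposited values are raw counts of read pairs per gene, counted by the authors with STAR without regard to strand, so that pairs in overlapping genes on opposite strands are left out as ambiguous (mean 5.50% of pairs) and multimapping pairs (mean 3.60%, 2.95% to 4.77%) are not counted. STAR's counts of the annotated strand served as an alternative. Gene positions and lengths were from GENCODE M21 on GRCm38.

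Genes with at least 10 read pairs summed over the 18 libraries (24495) were tested with edgeR 4.0.16 in R 4.3.3: TMM scaling, quasi-likelihood fit with robust dispersion, and Benjamini-Hochberg adjustment over all genes at a threshold of 0.05. IP vs. input was fitted over 18 libraries with treatment as a covariate, and ethanol vs. control within each fraction. Each SE was obtained by dividing the log2 change by the square root of F. DESeq2 1.42.0, other scalings, filters, sample sets and left-out libraries were alternatives. The fits were also run on simulated counts, with changes put only into the more highly expressed genes. Libraries were drawn independently there, without shared dishes. Those runs are not used as support for the members' results. Libraries of one group were compared for copies, and the closest pair differed by a chi-square per degree of freedom of 4.06, so all were kept.

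The input and IP libraries of replicates 4 to 6 of a treatment are, by the study's methods, from the same dishes, and their deviations from the group means correlated at 0.0495 to 0.148. Full statistics are given for members that passed the test, and for the 3 genes with the highest mean in each neuronal, precursor or repressor list, of which some results are not reported here. The members and lists were chosen with earlier results of these data known.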

Additional observations from a re-analysis of the deposited data

Results flagged for a closer look

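In 2 of 62 groups of 6 IP libraries examined, 1 library stood apart from the others by Dixon's criterion, where chance gives about 1 in 20, or 3.1 groups. *Snap25* had 0.117 CPM in IP ethanol 1, against 0 to 0.0409 CPM in the other 5 libraries of that group. *Rbfox3* had 0.328 CPM in IP control 5, against 0.0928 to 0.146 CPM in the other 5. Neither member was called for ethanol in IP.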

How the results depend on the processing

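No member's fold change turned sign among those called. Over the alternatives that gave an adjusted p, 570 of 580 values of the called members kept their call for IP vs. input. For ethanol, 178 of 198 kept it in IP and 109 of 125 in input. DESeq2 gave *Slc17a7* no adjusted p in input, and that value is not counted. Tested against a fold change of 1.2, IP vs. input called 1910 genes higher and 3026 lower, with 9 members higher. The same test gave 38 and 57 genes with 1 member higher (*Syn1*) and 0 lower for ethanol in IP, and 8 and 47 genes with 0 members in either direction for ethanol in input. In control libraries alone 3 members were lower in IP. Ethanol in IP gave 1824 genes higher in replicates 4 to 6 alone, and 1623 higher and 1372 lower in replicates 1 to 3 alone. DESeq2 called 2 genes higher for the interaction of ethanol with fraction.

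With 1 library left out at a time, IP vs. input called 5909 to 6199 genes higher and 6088 to 6392 lower, with 15 to 16 members higher and 5 lower. Ethanol in IP called 2412 to 2833 genes higher and 2049 to 2525 lower, with 5 to 7 and 2 to 4 members. Ethanol in input called 1293 to 1517 and 1530 to 1677 genes, with 5 to 7 and 2 to 3 members. The difference between fractions gave 0 to 1 genes higher, the 1 without IP ethanol replicate 3.

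With a replicate block for the dish, in 12 libraries, IP vs. input called 15 members higher and 6 lower, as without the block. The difference between fractions gave 94 genes higher and 8 lower with the block, and 12 and 1 without it. A control and an ethanol dish have no more than a number in common, and their deviations correlated at -0.104 to 0.221 in IP and 0.0195 to 0.0657 in input. A block on that number gave 7 members higher and 3 lower for ethanol in IP and 8 and 2 in input, adding *Map2* (adjusted p = 0.00961) and *Syn2* (adjusted p = 0.0459).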
